A study of Mus musculus with 2 samples.

Results

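The nuclear lamina and LINC complex genes are a set of 10 genes chosen by name: the lamin genes Lmna, Lmnb1 and Lmnb2, the inner nuclear membrane genes Lbr, Emd and Tmpo, the nesprin genes Syne1 and Syne2, and the SUN genes Sun1 and Sun2. Their rows were found by Ensembl identifier. All 10 were present among 43346 Ensembl genes, with 81 of 103639 transcripts. The study sequenced total RNA, above 200 bases, from neonatal hearts of the mouse strain B6NCrl at postnatal day 0, with 10 ng of RNA per library. Pup 2 gave the heart of replicate 1 and pup 3 that of replicate 2, each heart kept single, and both pups came from pregnancy 1. The labels name no allele and no treatment and give both samples the same donor identifier. There was 1 group (n = 2), so genes and transcripts are compared within each heart and between the littermates.

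The lamina is a meshwork of intermediate filament proteins, the lamins, that lines the inner face of the nuclear envelope. SUN proteins cross the inner nuclear membrane and, in the space between the membranes, grip the KASH tails of nesprins in the outer membrane. This bridge, the LINC complex, couples the lamina to actin, microtubules and intermediate filaments, and heart muscle is one of the tissues affected by inherited defects of A-type lamins and of emerin.

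The libraries held 46151722 expected counts in replicate 1 and 44707283 in replicate 2, of which the 10 genes took 27904 (0.0605%) and 26839 (0.06%). Levels are in TPM, which is scaled by length and depth, with the mean ± SD of the hearts (n = 2) and the deposited credibility interval, whose width the files do not state. All 5 heart muscle markers were detected and summed to 37869 and 33935 TPM. Endothelial (5 of 5, 170 and 161 TPM), fibroblast (5 of 5, 961 and 1018 TPM), smooth muscle and pericyte (4 of 4, 38.0 and 34.0 TPM), macrophage (4 of 4, 13.5 and 16.2 TPM) and cycling cell markers (4 of 4, 169 and 157 TPM) were present too. In whole hearts, fewer cells of a type and less RNA per cell cannot be told apart.

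All 10 genes reached 1 TPM in both hearts, as did 54.5% of protein-coding genes (11699 of 21474). Their levels ran from 2.79 TPM for Sun2 to 87.9 TPM for Lmna, and all of them together summed to 243 and 233 TPM. By role, the A-type lamin gene was followed by the inner membrane genes (71.7 and 72.5 TPM), the nesprins (32.2 and 31.0 TPM), the B-type lamins (26.6 and 26.7 TPM) and the SUN genes (19.9 and 19.8 TPM). The order by mean level was Lmna, Tmpo, Lbr, Lmnb1, Syne2, Sun1, Syne1, Emd, Lmnb2 and Sun2. Neighbours counted as separated when the sign of their log2 ratio was shared by both hearts, its mean exceeded the difference between hearts, and the credibility intervals were apart in each heart. On that rule 7 of 9 neighbouring pairs were separated. Lmnb1 and Syne2 were not, nor were Syne2 and Sun1. By counts not divided by length, and over transcripts with a complete coding sequence alone, Syne1 came above Sun1 and Lmnb2 above Emd. The order of these pairs, though separated, thus depended on the measure. With 2 animals, the smallest two-sided p of an exact sign-flip test is 0.5, and none is printed.

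**Figure D1:**
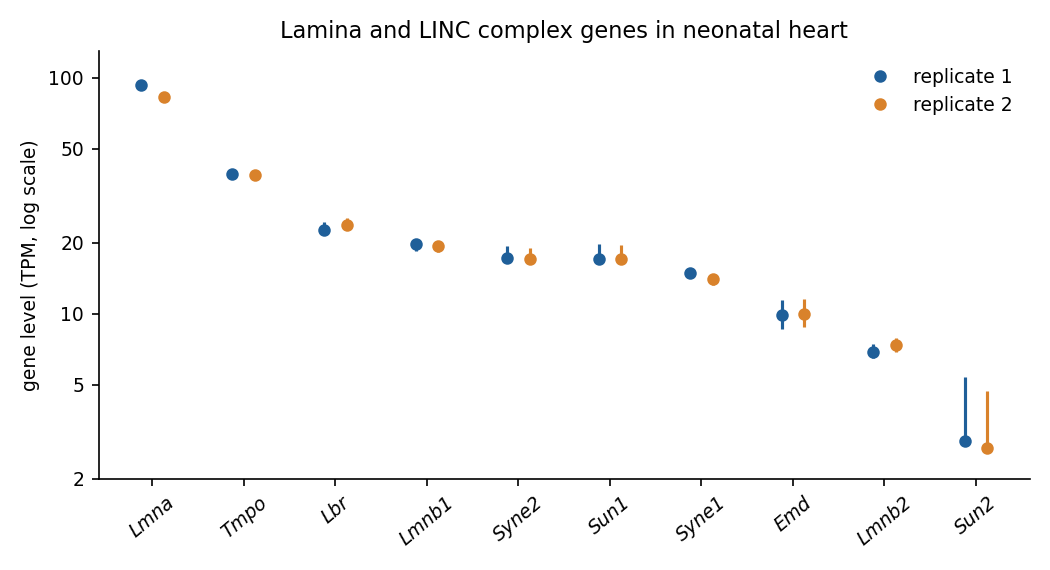
Level of each lamina and LINC complex gene in TPM (log scale) in the 2 hearts, ordered by mean; points are single libraries and vertical lines the deposited credibility intervals. Lmna stands highest at 93.04 and 82.78 TPM and Sun2 lowest at 2.88 and 2.69 TPM, and the middle of the order, Lmnb1, Syne2 and Sun1, lies between 17.04 and 19.72 TPM.

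Lmna, which encodes lamins A and C (ENSMUSG00000028063.11, mm10 chromosome 3, 88480147 to 88509956, minus strand), had 93.04 TPM in the first heart and 82.78 TPM in the second (87.9 ± 7.25). It was the most abundant of the set in both hearts and ranked above 89.13% of the 11699 detected protein-coding genes. Its credibility intervals, 89.63 to 94.47 and 79.88 to 84.37 TPM, did not overlap between the hearts.

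Lamin A and lamin C come from 1 gene by alternative splicing, so the coding sequence on both sides of the point where they part is shown, from GENCODE M21 transcripts on GRCm38 (mm10). Lower case marks the last shared bases and capitals the bases after the branch. Lmna-201 joins chr3:88483318-88483347 to chr3:88482583-88482612, and Lmna-203 reads on without a break over chr3:88483297-88483347, both on the minus strand.
Lmna-201 (prelamin A): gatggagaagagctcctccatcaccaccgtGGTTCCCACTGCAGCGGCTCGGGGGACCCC
Lmna-203 (lamin C): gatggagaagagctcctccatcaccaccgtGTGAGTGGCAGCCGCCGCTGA
The forms share 568 codons. Prelamin A then has 97 codons of its own, to a total of 665, and lamin C has 6, to a total of 574, with its stop codon at the end of the printed line.

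Both forms were abundant, and which of them led by TPM differed between the hearts. The deposited transcript share is a percent of the gene's TPM, that is, per length. Lmna-203, lamin C, had 50.4% in replicate 1 and 43.4% in replicate 2 (46.9 and 35.9 TPM). Lmna-201, prelamin A, had 43.7% and 52.9% (40.7 and 43.8 TPM). Lamin C was thus ahead in replicate 1 and prelamin A in replicate 2. The credibility intervals of the forms did not overlap within either heart, with 42.3 to 50.4 TPM for lamin C beside 38.2 to 42.0 TPM for prelamin A in replicate 1, and 31.2 to 38.3 beside 41.1 to 45.0 TPM in replicate 2. Between the hearts the intervals were apart for lamin C and overlapped for prelamin A. The share of all transcripts with intervals apart between the hearts was not counted.

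By expected counts, which are not divided by length, prelamin A led in both hearts, with 56.2% and 64.9% of the gene's counts against 40.7% and 33.5% for lamin C. The transcripts are 3156 and 2021 bases long, so a read weighs more in the TPM share of lamin C. The leading transcript of replicate 1 moved by 6.96 percentage points between the hearts. Among 6445 genes that had several transcripts and 5 TPM or more, the median shift was 2.35 points, and 17.0% shifted at least as much. Lmna-202, which starts at another codon and has 462 codons, made up 4.75% and 2.3%, with wide intervals of 0.624 to 7.73 TPM in replicate 1 and 9.51e-05 to 5.46 TPM in replicate 2.

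Prelamin A and B-type lamins are known to end in a CaaX motif, to which a farnesyl group is added, and lamin C lacks it. The ends of a prelamin A and a B-type lamin transcript are shown to compare these codons. The last 48 bases of each coding sequence are printed with the stop codon in lower case and the last 4 codons, the CaaX codons, in capitals. They lie at chr3:88482346-88482366 and chr3:88482074-88482100 for Lmna-201 and at chr10:80903212-80903217 and chr10:80902859-80902900 for Lmnb2-201, all on the minus strand of GRCm38.
Lmna-201: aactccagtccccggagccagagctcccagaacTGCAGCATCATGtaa
Lmnb2-201: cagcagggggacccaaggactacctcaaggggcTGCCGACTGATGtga
Both groups of capitals begin with TGC and end with ATG.

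All 5 enzyme genes of prelamin processing were detected, as 54.5% of protein-coding genes were. Fnta and Fntb encode the subunits of farnesyltransferase and stood at 48.6 ± 2.38 and 9.98 ± 0.00707 TPM. Rce1, the protease that can trim the farnesylated end, stood at 16.1 ± 0.233 TPM, and Icmt, which methylates it, at 10.4 ± 1.3 TPM. Zmpste24, which makes the last cut that turns prelamin A into mature lamin A, stood at 12.96 and 13.49 TPM (13.2 ± 0.375). None of these genes differed by a factor of 2 or more between the hearts, and their log2 ratios ran from -0.14 to 0.12. Only 0.498% of all genes with a mean count of at least 50 differed by that much.

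The B-type lamin genes were lower than Lmna. Lmnb1 (ENSMUSG00000024590.8, chromosome 18, 56707813 to 56753424, plus strand) stood at 19.72 and 19.32 TPM (19.5 ± 0.283), and Lmnb2 (ENSMUSG00000062075.9, chromosome 10, 80901203 to 80918245, minus strand) at 6.90 and 7.37 TPM (7.13 ± 0.332). Each was carried almost wholly by 1 coding transcript. Lmnb1-201, with 588 codons, took 95.8% and 98.4% of its gene, and Lmnb2-201, with 615 codons, took 100% in both hearts. By posterior means the share of Lmnb2-201 was 85.1% and 94.5%.

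Within each heart, Lmna stood 4.72-fold above Lmnb1 in replicate 1 and 4.28-fold in replicate 2, and 13.5-fold and 11.2-fold above Lmnb2. On the log2(TPM + 1) scale these were mean differences of 2.11 ± 0.098 and 3.45 ± 0.177. Lmnb2 had 0.35 and 0.381 times the TPM of Lmnb1. Each of these gaps exceeded the spread between the hearts. A-type RNA thus made up 77.8% and 75.6% of all lamin TPM (76.7 ± 1.51). Lmna was also 4.13-fold and 3.5-fold above Lbr, which encodes the lamin B receptor. All 9 pairs compared among the set were separated by the rule used for neighbours. That rule was not applied to genes outside the set, so no share over all gene pairs is given.

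The inner nuclear membrane genes differed in level. Tmpo, the gene of the LAP2 (lamina-associated polypeptide) proteins (ENSMUSG00000019961.12, chromosome 10, 91147571 to 91181315, minus strand), stood at 39.21 and 38.81 TPM (39.0 ± 0.283). Lbr, whose product tethers heterochromatin and B-type lamins and is a sterol reductase (ENSMUSG00000004880.7, chromosome 1, 181815335 to 181843046, minus strand), stood at 22.54 and 23.68 TPM (23.1 ± 0.806). Emd, the emerin gene (ENSMUSG00000001964.10, chromosome X, 74254687 to 74261548, plus strand), was lowest of these at 9.91 and 9.96 TPM (9.94 ± 0.0354), or 0.253 and 0.257 times Tmpo and 0.44 and 0.421 times Lbr. LAP2 proteins and emerin share the LEM domain, which binds the chromatin protein BAF.

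Tmpo parts into a soluble form, LAP2 alpha, which lies in the nucleoplasm with A-type lamins, and membrane forms, and the branch is shown because the RNA was divided between them. In each line lower case is the shared end, chr10:91164043-91164072, and capitals are the first 30 bases after the branch, chr10:91163332-91163361 for Tmpo-201 and chr10:91158816-91158845 for Tmpo-202, on the minus strand (GENCODE M21, GRCm38).
Tmpo-201 (LAP2 alpha): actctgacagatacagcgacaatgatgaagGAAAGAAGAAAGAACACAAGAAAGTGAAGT
Tmpo-202 (membrane form): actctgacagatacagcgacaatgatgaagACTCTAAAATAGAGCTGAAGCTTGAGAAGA
The forms share 187 whole codons. Tmpo-201 has 693 codons in all and Tmpo-202 has 452.

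The membrane forms of Tmpo together exceeded LAP2 alpha in both hearts. They made up 62.9% and 66.9% of the gene's TPM (64.9 ± 2.84), and 60.9% and 65.0% of its counts. LAP2 alpha, Tmpo-201, had 37.1% and 33.1% (14.6 and 12.8 TPM). Among the membrane forms, Tmpo-202 led with 44.3% and 43.8% (17.4 and 17.0 TPM). The shorter Tmpo-203 (412 codons) had 11.1% and 16.1%, and Tmpo-204 (380 codons) 5.32% and 6.96%. These 2 were quantified at 3413 and 3317 bases and have 1854 and 1953 bases in M21, the source of the codon counts. The credibility intervals of these 3 membrane forms overlapped between the hearts, whereas that of LAP2 alpha, 13.7 to 15.0 TPM in replicate 1 and 12.0 to 13.3 TPM in replicate 2, did not. As for lamin C, no share over all transcripts was counted.

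Lbr and Emd differed in how much of their TPM was assigned to coding transcripts. Lbr-201, with 626 codons, took 93.5% and 90.8% of Lbr. In Emd the largest TPM share, 47.8% and 46.0%, lay in Emd-205, a processed transcript of 614 bases with no coding sequence. Emd-201, which encodes emerin in 259 codons, had 40.1% in both hearts (3.98 and 3.99 TPM), and Emd-202, with 158 codons, 12.2% and 13.9%. By counts Emd-201 led, with 60.2% and 59.4% against 24.7% and 23.5% for Emd-205. The credibility intervals of Emd-205 and Emd-201 overlapped in both hearts, at 2.85 to 6.04 beside 3.14 to 4.52 TPM in replicate 1.

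The nesprin genes were close in gene level and unlike in their transcripts. Syne1 (nesprin-1, ENSMUSG00000096054.2, chromosome 10, 5020917 to 5551482, minus strand) stood at 14.96 and 13.99 TPM (14.5 ± 0.686). Syne2 (nesprin-2, ENSMUSG00000063450.10, chromosome 12, 75818134 to 76110926, plus strand) stood at 17.26 and 17.04 TPM (17.1 ± 0.156). Syne1 had 0.867 and 0.821 times the level of Syne2, a log2(TPM + 1) difference of -0.23 ± 0.0516. Over transcripts with a complete coding sequence alone, a setting chosen after the values were seen, Syne1 stood at 15.0 and 14.0 TPM and Syne2 at 2.03 and 1.91 TPM, and the log2 difference turned to 2.38. The sides of this setting are unlike. For Syne1 it holds forms of 949 and 1431 codons, because the giant form was not analysed here. For Syne2 all its counts lie in a giant form of 6870 codons. Gm10097, a gene on the opposite strand within Syne1, held 94 and 84 counts beside 2715 and 2507 for Syne1. Whether counting used strand is not given in these sources.

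Giant nesprins reach from the KASH tail in the outer membrane to a far end that binds actin, and short forms can keep only 1 of these ends. The last 93 coding bases, stop codon included, belong to the KASH tail that SUN proteins hold, and they are printed because they mark which transcripts can anchor at the nucleus. They lie at chr10:5022007-5022099 on the minus strand for Syne1-202 and at chr12:76109952-76110044 on the plus strand for Syne2-210 (GENCODE M21, GRCm38). Capitals mark bases that are the same at the same distance from the stop.
Syne1-202: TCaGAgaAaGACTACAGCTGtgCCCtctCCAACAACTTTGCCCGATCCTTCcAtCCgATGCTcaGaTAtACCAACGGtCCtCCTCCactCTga
Syne2-210: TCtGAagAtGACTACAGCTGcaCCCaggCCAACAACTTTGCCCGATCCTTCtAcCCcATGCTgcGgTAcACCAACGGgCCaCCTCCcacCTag
Of the 93 bases, 70 were identical (75.3%).

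Of the 2 Syne1 transcripts analysed here, whose shares sum to 100%, the short form with the KASH tail took nearly all. Syne1-202, with 949 codons, took 98.4% and 98.7% of the gene's TPM (14.7 and 13.8 TPM) and 2652 and 2460 counts. Syne1-201, a form of 1431 codons with the start of the giant protein but another stop, took 1.6% and 1.29%, on 63 and 47 counts. The giant Syne1-205 of GENCODE M21, with 8799 codons, was not analysed here, so reads from the end it shares with Syne1-202 could go only to the short form, and neither the split between them nor a level of giant nesprin-1 is given. Syne1-202 was also quantified as a model of 4819 bases, against 3443 in M21, from which its codons were taken.

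Syne2 was spread over 5 transcripts with at least 5% of its TPM. Syne2-210, the giant nesprin-2 of 6870 codons in 21704 bases, took 11.8% and 11.2% of TPM (2.03 and 1.91 TPM) but 55.5% and 54.3% of counts (1674 and 1561 counts). The larger TPM shares lay in shorter models: Syne2-213, an incomplete coding sequence of 528 codons (27.5% and 22.1%), Syne2-217, a retained intron model of 2121 bases (23.5% and 28.3%), and Syne2-206, annotated for nonsense-mediated decay (19.4% and 22.3%). Syne2-207, another retained intron model, had 10.9% and 9.31%. By TPM the leader was Syne2-213 in replicate 1 and Syne2-217 in replicate 2, with credibility intervals that overlapped in both. Transcripts with the KASH stop codon of the giant form held 14.4% and 12.6% of TPM and 58.8% and 56.1% of counts.

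The SUN genes were far apart. Sun1 (ENSMUSG00000036817.10, chromosome 5, 139200637 to 139249840, plus strand) stood at 17.07 and 17.06 TPM (17.1 ± 0.00707), and Sun2 (ENSMUSG00000042524.9, chromosome 15, 79724070 to 79742536, minus strand) at 2.88 and 2.69 TPM (2.79 ± 0.134). Sun1 was 5.93-fold and 6.34-fold above Sun2, and the hearts did not overlap. Sun2 ranked above 14.35% of detected protein-coding genes, against 59.06% for Sun1, and had 0.031 and 0.0325 times the level of Lmna. The deposited posterior mean of Sun2 was higher, at 4.02 and 3.66 TPM, and its level of 2.69 TPM in replicate 2 lay just under its own credibility interval, 2.718 to 4.734 TPM.

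Sun1 RNA was shared by forms that keep both ends of the longest coding sequence. Sun1-205 (790 codons) had 42.4% and 36.8%, and Sun1-201, the longest (913 codons), 33.0% and 31.7%. Forms with both ends summed to 78.9% and 79.1% of the gene. Smaller shares lay in the incomplete Sun1-211 (9.0% and 9.38%) and the retained intron model Sun1-216 (8.69% and 7.72%). Sun1-206 (876 codons) was at 0 counts in replicate 1 and 179 in replicate 2, with overlapping intervals of up to 0.899 TPM and from 0.485 TPM.

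Sun2 rested on 307.95 and 300.93 counts, the fewest of the set, and its transcript shares were the least steady. Sun2-201 (731 codons) had 49.1% and 67.6%, and the retained intron model Sun2-205 19.2% and 23.0%. By posterior means the share of Sun2-201 was 27.1% and 35.1%. Sun2-202 (11.3%), Sun2-204 (9.06%) and Sun2-208 (5.07%) had counts in replicate 1 only. Sun2-206 had 3.65% and 7.92% on 1 and 2 counts, below the 3 counts that a count of 0 allows. The credibility intervals of these forms, Sun2-201 included, overlapped between the hearts.

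**Figure D2:**
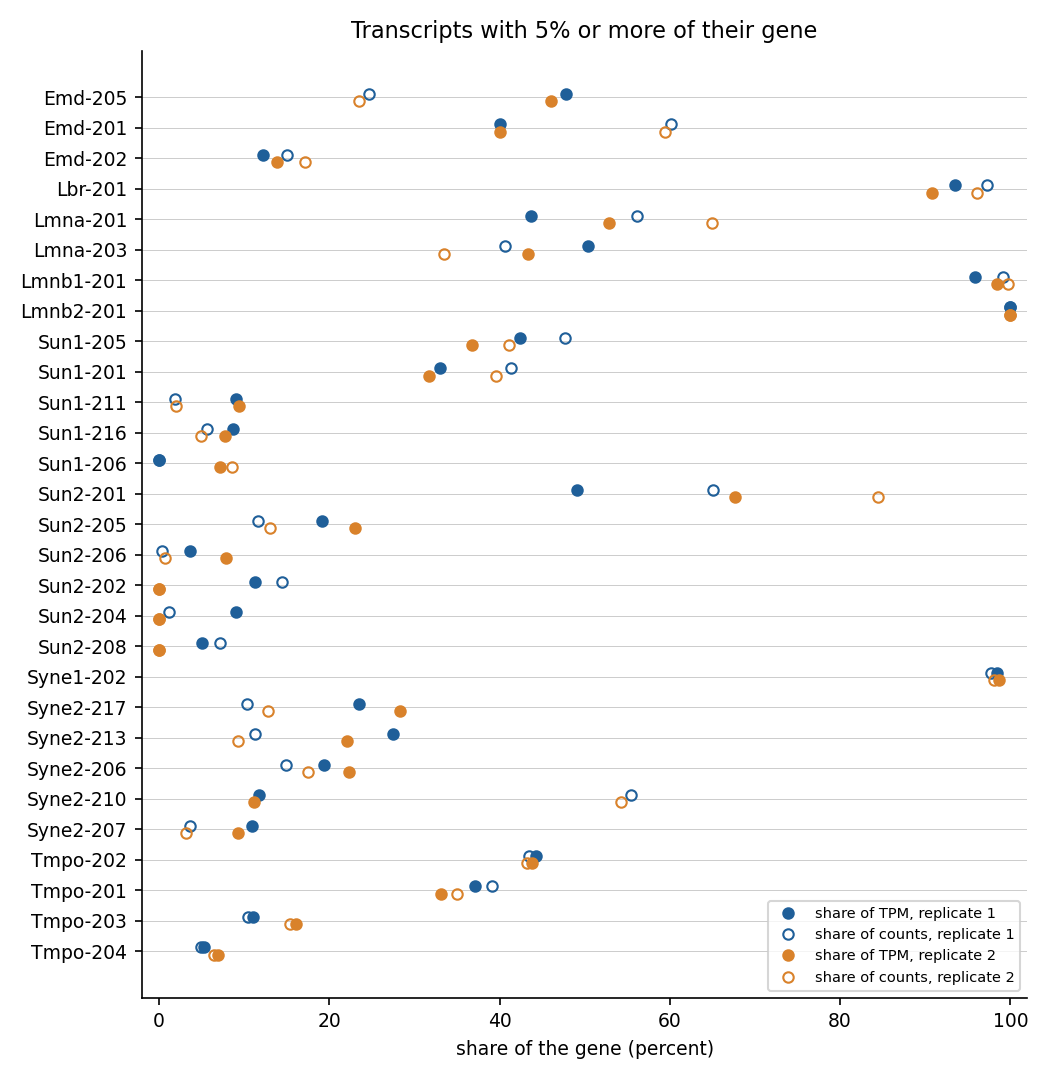
Share of its gene taken by each transcript with at least 5% of TPM in either heart, in percent; filled points are shares of TPM and open points shares of expected counts, blue for replicate 1 and orange for replicate 2. Syne2-210 shows the widest distance between its share of TPM (11.8% and 11.2%) and of counts (55.5% and 54.3%), and the single-form genes Lbr, Lmnb1, Lmnb2 and Syne1 sit above 90%.

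Across the set, 4 of the 9 genes with at least 5 TPM had over 50% of TPM in the same transcript in both hearts, namely Lbr, Lmnb1, Lmnb2 and Syne1, where 75.1% of 6445 genes did. By counts 8 of all 10 did, where 83.0% of the 6445 genes did. The 8 include Sun2, which is below the 5 TPM that the 6445 genes had to reach. The leading transcript by TPM was the same in both hearts for 7 of 9 genes. It differed for Lmna and Syne2, as it did for 5.42% of the 6445 genes (349), and by counts it differed for none of the 9, where 4.55% of the 6445 genes differed (293). Forms with the start and the stop of the longest coding sequence held over 50% of TPM in 5 of 10 genes, Lmnb1, Lmnb2, Lbr, Sun1 and Sun2, where 74.6% of 11699 detected protein-coding genes had as much. By posterior means Sun2 had 42.1% and 49.0% in such forms, which left 4 genes.

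Transcripts not annotated as protein coding held 20% or more of TPM in both hearts for Emd (47.8% and 46.0%) and Syne2 (55.5% and 62.7%), 2 of the 9 genes with at least 5 TPM. Of 8365 protein-coding genes with at least 5 TPM, 18.3% (1528) passed that threshold, which was chosen after the values were seen, and the median share was 1.25%. Sun2, below 5 TPM, had 26.9% and 23.0%. Over complete coding transcripts alone, Emd stood at 5.19 and 5.38 TPM, Sun1 at 13.5 and 13.8 TPM and Sun2 at 1.74 and 1.86 TPM. Syne2 moved from the fifth place of the order to the ninth, below Emd and above Sun2. Syne1 also came above Sun1, and Lmnb2 above Emd.

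**Figure D3:**
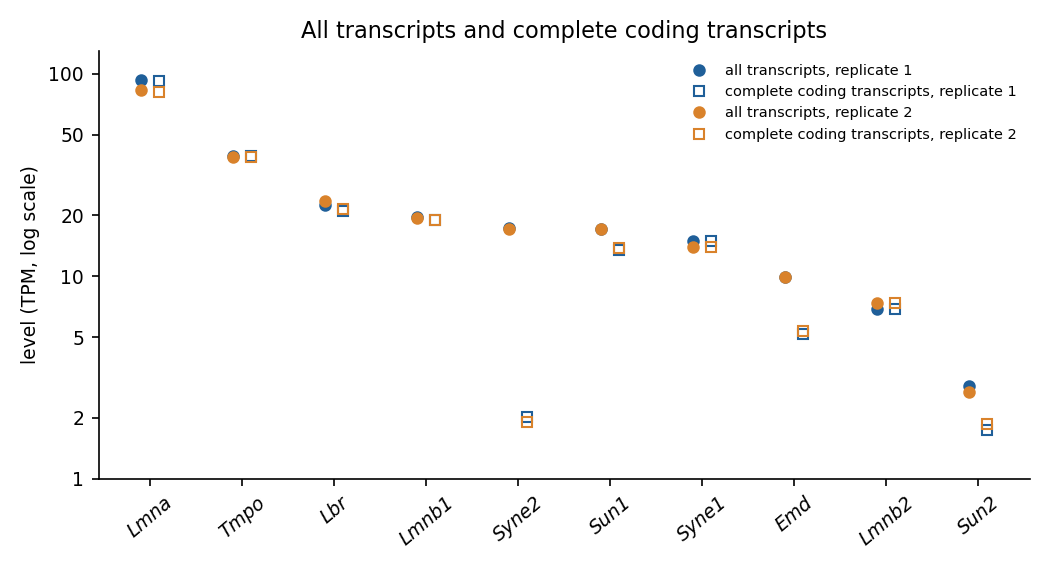
Level in TPM (log scale) of each gene over all transcripts (circles) and over transcripts with a complete coding sequence only (squares), in both hearts. Syne2 drops from 17.26 and 17.04 TPM to 2.03 and 1.91 TPM and Emd from 9.91 and 9.96 TPM to 5.19 and 5.38 TPM, while Tmpo, Syne1 and Lmnb2 keep 100% of their TPM. The giant form of Syne1 was not analysed, so the squares of Syne1 rest on shorter forms.

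The littermates differed little in these genes. Log2 ratios of scaled counts, replicate 2 minus replicate 1, ran from -0.09 for Lmna (8450 and 7787 counts) to 0.11 for Lmnb2 (904 and 955 counts). None of the 10 genes reached an absolute log2 ratio of 1, a factor of 2, which 0.498% of 13463 genes with a mean count of at least 50 did (67 genes). All 10 lay within 1.2-fold, as did 84.8% of those genes. The median log2 ratio was 0.007 over the set and -0.001 over all genes counted. The 95% counting interval lay below 0 for Lmna (-0.13 to -0.04) and Syne1 (-0.08, -0.16 to -0.01) and included 0 for the other 8. In size, the ratios of Lmna and Syne1 exceeded those of only 43.3% and 42.1% of the 13463 genes. The share of those genes with an interval apart from 0 was not counted. On TPM the log2 ratio of Lmna was -0.17, with a deposited mean transcript length of 2479 bases in replicate 1 and 2591 in replicate 2. The interval covers counting error only, and with 1 heart on each side the difference has no replicate check.

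**Figure D4:**
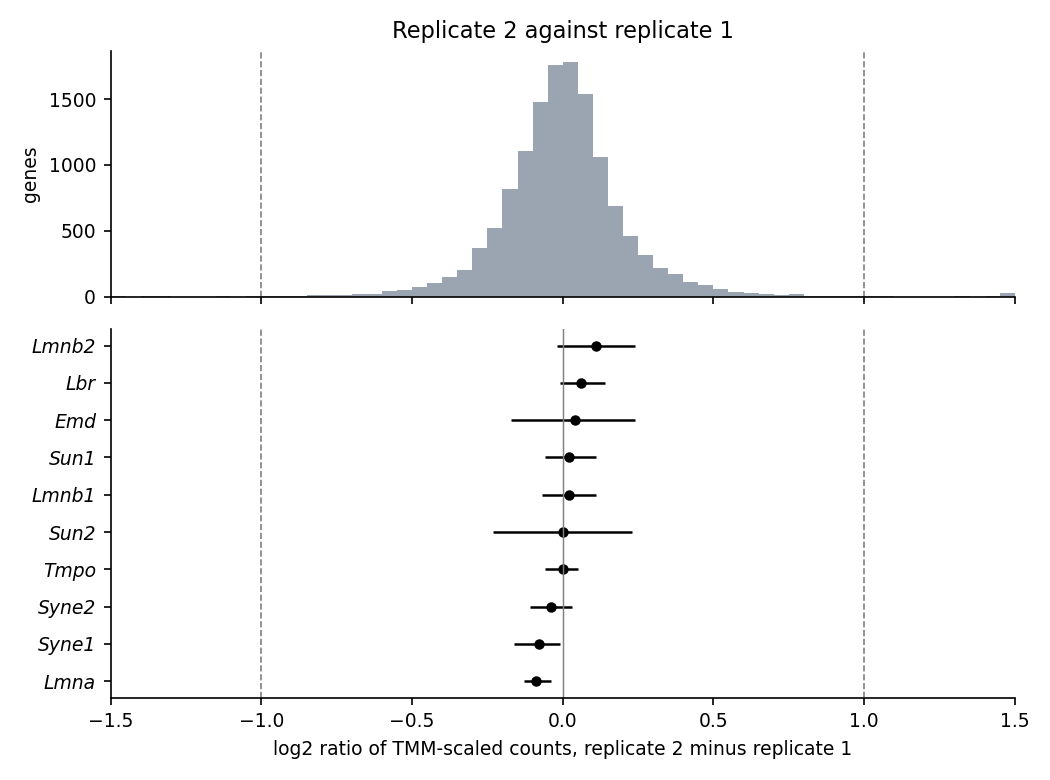
Upper panel, histogram of the log2 ratio of scaled counts, replicate 2 minus replicate 1, over 13463 genes, with genes beyond the axis gathered in the outermost bins; lower panel, the same ratio for the 10 lamina and LINC complex genes with 95% counting intervals. The members lie between -0.09 and 0.11, far inside the dashed lines at an absolute log2 ratio of 1.

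Markers of other tissues were less even between the hearts. Of 4 lung epithelial markers 1 was detected in both, and the list summed to 29.8 TPM in replicate 1 and 638 TPM in replicate 2, with Scgb3a2 at 2.96 and 563 TPM and Sftpc at 25.46 and 0.34 TPM. Erythroid markers (3 of 4 detected) summed to 2556 and 1638 TPM. Skeletal muscle markers (1 of 4 detected) summed to 3.89 and 2.24 TPM, and Myod1 was at 0 counts in replicate 1 and 1 in replicate 2. Their part in the levels of the lamina and LINC complex genes was not tested.

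Of 54 measured partner genes of the nuclear envelope, 49 were detected in both hearts, beside 54.5% of all protein-coding genes. All 19 partners of the lamina and the inner nuclear membrane were detected, with a median of 29.3 TPM. The most abundant was Banf1, which encodes the chromatin-bridging protein BAF that LEM domains bind, at 282.29 and 294.24 TPM (288 ± 8.45). Cbx3, a heterochromatin protein, followed at 213 ± 13.0 TPM, then Tmem38a, a cation channel gene of muscle, at 151 ± 4.29 TPM, and the emerin-binding gene Lmo7 at 130 ± 0.0424 TPM. Banf1 thus stood above every lamin and LINC complex gene in both hearts.

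On the cytoplasmic side, 10 of 11 cytoskeletal partners of nesprins were detected, with a median of 14.1 TPM. Des, the muscle intermediate filament gene, led at 485.75 and 454.27 TPM (470 ± 22.3). Kif5b and Klc1, heavy and light chains of the kinesin-1 motor, stood at 90.9 ± 4.53 and 67.5 ± 2.46 TPM, and Akap9, a centrosome and Golgi scaffold, at 67.4 ± 6.0 TPM. Akap9 rested on 3406 and 3409 counts, against 9062 and 8037.92 for Plec, which stood lower at 59.51 and 57.84 TPM. The order of Akap9 and Plec thus depended on the division by length. Fhod1, a formin that binds giant nesprin-2, was not detected (0.54 ± 0.0141 TPM).

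The other SUN and KASH genes were low, with 2 of 6 detected: Sun3 at 2.04 ± 0.375 TPM and Syne4 (nesprin-4) at 1.21 ± 0.0354 TPM. Syne3 (nesprin-3, which binds plectin) was just under the limit at 0.93 and 0.97 TPM, on 186 and 195 counts. Spag4 stood at 0.770 ± 0.212 TPM and the meiotic Kash5 at 0.145 ± 0.0495 TPM, and Sun5, known from testis, was at 0 counts in both hearts. In each heart, all of them together (4.97 and 5.26 TPM) were below Sun1 alone.

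All 13 nuclear pore genes measured were detected, with a median of 6.3 TPM. Tpr, of the nuclear basket, led at 88.6 ± 0.608 TPM, followed by Nup88 (64.7 ± 3.94 TPM), the scaffold gene Nup93 (22.4 ± 0.863 TPM) and Nup107 (11.5 ± 0.0636 TPM). No partner gene with a mean count of at least 20 reached a factor of 2 between the hearts. Of all genes with a mean count of at least 50, only 0.498% did. The median log2 ratios of the lists lay between -0.08 for the cytoskeletal partners and 0.05 for the prelamin enzymes, beside -0.001 over all genes counted.

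**Figure D5:**
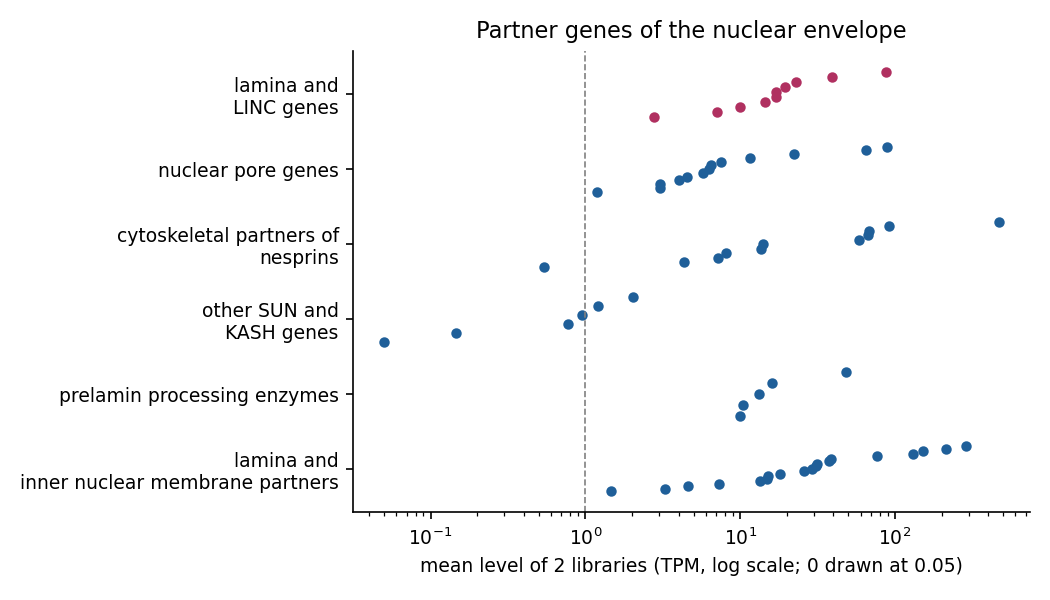
Mean level of the 2 hearts in TPM (log scale) for each lamina and LINC complex gene (red) and each gene of the partner lists (blue), 1 row of points per list; a level of 0 is drawn at 0.05 and the dashed line marks 1 TPM. The other SUN and KASH genes sit around or below the line, at 0 to 2.04 TPM, and the highest points are Des (470 TPM) and Banf1 (288 TPM).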

How the data were processed

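Each of 2 hearts gave 1 unpooled library. The authors' quantification used mm10 and GENCODE M4, per the deposited read-me, and wrote RSEM-style columns. The aligner and the versions of the tools were not given in the sources used here. Per the file headers, expected counts are estimated reads per feature, TPM and FPKM are scaled by effective length (length minus 99 bases) and depth, and the percent column is the part of a gene's TPM in each transcript. Deposited credibility bounds of TPM and posterior SD of the count are signal values in TPM and reads. Of 43346 genes, 42462 had a symbol in GENCODE M21, which also gave coordinates, codons and sequences. The members and lists were chosen with earlier results of these data known. Detection was 1 TPM or more in both libraries, and level ratios used log2(TPM + 1). Littermate ratios used expected counts rounded to whole numbers, TMM scaling and a prior count of 2 (edgeR 4.0.16, R 4.3.3), checked on simulated data. Named genes were all members, their transcripts with at least 5% of TPM, and of each partner list the 4 most abundant detected genes and every undetected gene. Fntb, Plec, Lmna-202, Syne1-201, Syne1-205, Gm10097 and the marker genes Scgb3a2, Sftpc and Myod1 were named after their values were seen. Alternatives were DESeq2 1.42.0 size factors, other pseudocounts, prior counts and filters, FPKM, posterior means, counts not divided by length, complete coding transcripts, and each replicate left out. The posterior SD of the count was at most 0.8897% of its mean for the members, and it exceeded 10% in 2.12% of 13463 genes. Kash5 was matched through its synonym Ccdc155, and Nup62 was not analysed here. Depth was 46151722 and 44707283 counts. Both samples share a donor identifier and nothing else states how separately they were prepared, so the SD may be partly technical. Tables were handled in Python 3.11.15 with pandas 2.3.3.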

Additional observations from a re-analysis of the deposited data

How the results depend on the processing

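Of the alternatives for counts, 37 values stayed within 1.5 times the main one and 4 did not. With shares of expected counts in place of TPM, the genes with over 50% in 1 transcript rose from 4 to 8, and those with over 50% in forms with the start and stop of the longest from 5 to 8. The genes past a factor of 2 between the hearts, 67, became 39 with TPM ratios at a pseudocount of 1 and 1883 with every gene of mean count 1 or more. The log2 ratio of Syne1 to Syne2, -0.23, reversed to 2.38 over complete coding transcripts, an alternative added after seeing the data. That alternative sets shorter forms of Syne1, whose giant form was not analysed, against the giant form of Syne2. For these the cause was not tested. The order of the members itself changed with counts not divided by length, in which Syne2 came above Lbr, Syne1 and Sun1 above Lmnb1, Syne1 above Sun1, and Lmnb2 above Emd. Counts of separated neighbours took either direction, so they do not show such changes. Sun1 and Syne2 traded places with posterior means and without replicate 1. Among single values, 78 moved, 142 did not, and 1, Syne1 to Syne2, reversed. Moved meant by more than the SD between the hearts or, for littermate ratios, outside the 95% counting interval. The 78 include FPKM levels set against TPM, which are on another scale. A value from 1 of 2 hearts always lies within the SD of the mean. Leaving out a replicate thus could not count as a move. Leaving out either replicate gave 10 detected members and 5 to 6 genes for the start and stop forms. Both counts required both hearts in the main setting, so leaving 1 out could only keep or raise them. No paired analysis was possible because there is 1 group. Sun2 rested on 307.95 and 300.93 counts, and the part of depth in its shares was not tested.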
